A study of Mus musculus with 8 samples.

Results

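The collagen genes of mouse tumors are described here, taken as every row of the deposited table whose symbol has the form of a collagen chain name, from Col1a1 to Col28a1, with the single exception of Col17a1. They numbered 43 of 27179 genes in the table. Expression was measured by RNA sequencing in 8 tumors grown from cxC26 cells, a cachexia-inducing line of mouse colon carcinoma 26, in adult male CD2F1 mice after subcutaneous injection into the flank. The 4 control tumors, labelled cxC26 scr, came from cells that carried CRISPR-Cas9 with a scrambled guide RNA. The other 4, labelled cxC26 IL6KOs1 and called IL-6 KO here, came from a single subclone in which the Il6 gene had been targeted. Cells of both kinds had been transduced with lentivirus and selected with puromycin. Per the labels, mice of both groups were kept until cachexia had developed. The inoculum and age of the sequenced tumors are not given in the sources used here, and in growth experiments of the study IL-6 KO tumors took longer to grow. Genotype and clone, and tumor age where it differed, cannot be told apart in these samples.

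Collagens are secreted or membrane-bound proteins whose alpha chains wind around each other into a stiff helix, and most of the solid mass of the extracellular matrix is made of them. Fibrillar collagens such as types I, III and V form the cables of connective tissue, type IV forms the sheet of basement membranes, type VI forms beaded filaments close to cells, and fibril-associated collagens decorate the cables. In solid tumors most fibrillar collagen is known to come from fibroblasts, while carcinoma cells, endothelial cells and pericytes add basement membrane chains. Chains are hydroxylated, folded and trimmed before cross-linking, and cells sense them through integrins and discoidin domain receptors.

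The depth was between 14158989 and 17048062 reads per tumor, and values are log2 CPM, read counts scaled to the library size on the log2 scale, unless a sentence says otherwise. The Il6 gene had 356, 326, 376 and 438 reads in scr tumors 1 to 4 and 64, 56, 86 and 59 in IL-6 KO tumors 1 to 4, in the direction the labels give. Of the markers of colon epithelium, Krt20 was abundant, at 10.07 to 10.48 across the 8 tumors, whereas Epcam, Krt8 and Vil1 did not reach the level needed for testing. The other 3 markers were called, with Krt18 and Cdh1 higher in IL-6 KO tumors (log2 fold changes 3.20 and 1.46, adjusted p = 3.02e-06 and 0.00251 in limma) and Cdx2 lower (log2 fold change -5.27, adjusted p = 4.18e-05 in limma). None of these 3 was above 4.28 in any tumor. Nothing in the labels says more of the replicates than that they are separate tumors of separate mice. A gene was tested where 4 or more of the 8 tumors reached 1 CPM, and called higher or lower in IL-6 KO tumors if the adjusted p of limma was under 0.05.

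The stretch of 250 bases before the RefSeq start site is printed for 4 collagen genes on the GRCm38.p6 build, 5′ to 3′ on the gene's own strand. Col6a3 and Col5a3 are shown because they had the largest decreases among abundant collagens, and Col6a5 and Col28a1 because their windows hold the letters TTCNNNGAA, the pattern bound by STAT factors, through which IL-6 signals. Capitals mark matches to that pattern, to the CCAAT box and to the GC box GGGCGG on either strand. All 4 genes lie on the reverse strand, at chr1:90843972-90844221 for Col6a3, chr9:20815068-20815317 for Col5a3, chr9:105960644-105960893 for Col6a5 and chr6:8192618-8192867 for Col28a1, and none of these bases falls in an exon of the GENCODE annotation.
Col6a3: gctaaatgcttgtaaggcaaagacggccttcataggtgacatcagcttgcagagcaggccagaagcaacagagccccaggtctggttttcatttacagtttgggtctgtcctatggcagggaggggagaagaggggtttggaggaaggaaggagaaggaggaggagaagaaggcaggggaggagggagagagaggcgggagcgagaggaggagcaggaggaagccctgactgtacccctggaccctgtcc
Col5a3: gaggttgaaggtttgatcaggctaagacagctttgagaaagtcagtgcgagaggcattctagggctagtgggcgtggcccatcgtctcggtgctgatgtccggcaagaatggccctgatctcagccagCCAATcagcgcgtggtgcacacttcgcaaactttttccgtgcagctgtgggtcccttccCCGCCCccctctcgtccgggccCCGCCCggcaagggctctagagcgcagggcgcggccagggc
Col6a5: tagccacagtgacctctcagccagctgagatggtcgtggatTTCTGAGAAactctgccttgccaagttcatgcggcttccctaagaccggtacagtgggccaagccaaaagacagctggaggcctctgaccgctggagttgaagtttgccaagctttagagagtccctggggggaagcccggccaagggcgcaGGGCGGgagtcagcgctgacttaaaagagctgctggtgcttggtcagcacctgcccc
Col28a1: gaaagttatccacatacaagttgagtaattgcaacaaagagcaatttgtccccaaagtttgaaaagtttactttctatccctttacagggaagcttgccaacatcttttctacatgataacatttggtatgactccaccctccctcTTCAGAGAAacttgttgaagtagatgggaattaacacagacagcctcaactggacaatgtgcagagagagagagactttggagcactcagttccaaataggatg

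Windows were found for 34 of the 43 collagen genes, 37 windows in all, each reaching from 250 bases before the start site to 50 after it. The STAT pattern occurred in 5.41% of these windows and in 8.30% of all 32851 windows of the same length, so it was no more frequent among collagens. Its match began 209 bases before the start of Col6a5 and 104 before that of Col28a1. The printed Col6a3 stretch held none of the patterns searched. In the Col5a3 stretch there was a CCAAT box and a pair of GC boxes. The GC box was found in 62.2% of collagen windows against 35.7% of all windows, the CCAAT box in 32.4% against 37.4%, TATAAA in 10.8% against 13.6%, and the AP-1 pattern TGANTCA in 2.70% against 7.81%, the last in Col6a1 alone. A match of letters is a description of the sequence and not a binding site.

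The collagen genes as a group were shifted toward lower expression in IL-6 KO tumors, but with members in both directions. Of the 43, 32 passed the filter on low expression and 11 did not. Among the 32, 15 were lower (46.9%, against 20.7% of all 13262 tested genes), 8 were higher (25%, against 19.1%) and 9 were not called. Together 71.9% of the tested collagens were called, against 39.8% of all tested genes. For 18 of the 32 (56.25%) the scr and IL-6 KO tumors did not overlap, against 37.1% of all tested genes, and of these 14 were lower and 4 higher. The median log2 fold change was -0.35 for the tested collagens and -0.003 for all tested genes. At the bulk level a smaller number of collagen-producing cells and less collagen RNA per cell cannot be told apart.

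**Figure D1:**
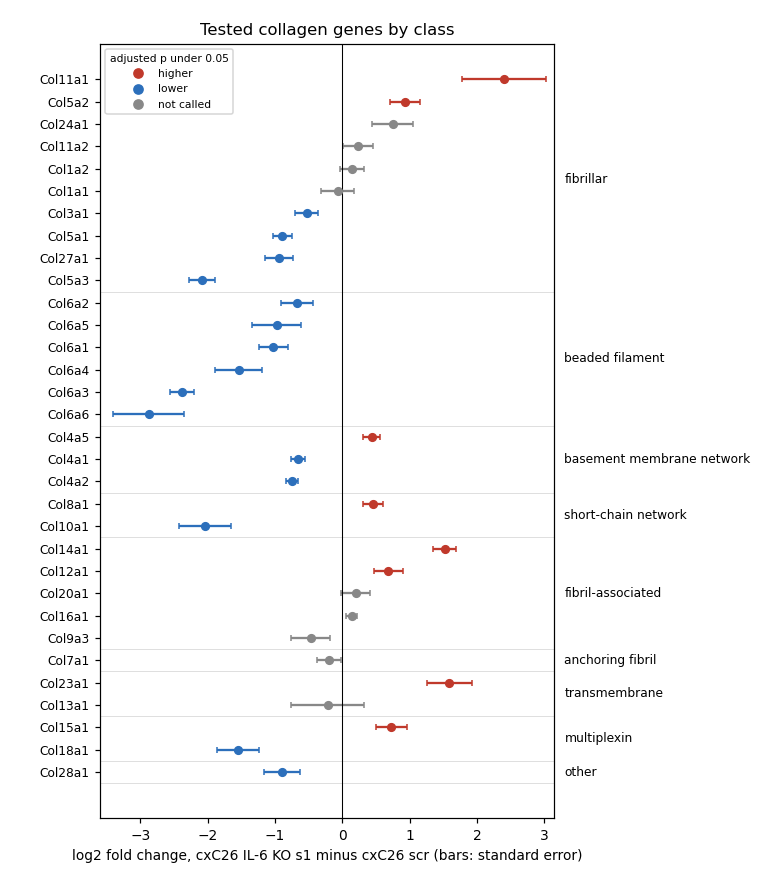
Log2 fold change (IL-6 KO minus scr, x axis) of the 32 tested collagen genes, grouped by class; points are fitted values from 4 against 4 tumors and bars are standard errors. Every type VI gene lies to the left of 0, while the fibrillar class reaches from Col5a3 at -2.09 to Col11a1 at 2.41.

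In total, collagen transcripts made up 1.34%, 1.06%, 1.15% and 1.01% of all reads in scr tumors 1 to 4, and 0.686%, 0.752%, 0.884% and 1.04% in IL-6 KO tumors 1 to 4. The mean was 1.14% ± 0.15 (SD, n = 4) in scr tumors and 0.841% ± 0.156 (SD, n = 4) in IL-6 KO tumors. IL-6 KO tumor 4 lay above scr tumor 4, so the groups overlapped. Without the 3 most abundant chains, Col1a1, Col1a2 and Col3a1, the share was 0.468%, 0.367%, 0.431% and 0.390% in scr tumors and 0.204%, 0.210%, 0.270% and 0.293% in IL-6 KO tumors, and the groups were apart. Col3a1 alone accounted for 33.7% to 41.7% of collagen reads in any tumor, with means of 39.2% ± 3.6 in scr tumors and 36.8% ± 2.4 in IL-6 KO tumors (SD, n = 4 each). The type I pair made up 31.2%, 23.6%, 21.3% and 21.3% of collagen reads in scr tumors and 36.5%, 36.0%, 30.3% and 33.5% in IL-6 KO tumors, where only scr tumor 1 overlapped the other group. The chains other than these 3 made up 36.5% ± 2.0 of collagen reads in scr tumors and 29.1% ± 1.3 in IL-6 KO tumors (SD, n = 4 each), again without overlap.

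Within a group, tumors differed in a way that ran across many collagens. Scr tumor 1 was the highest of its group for 19 of the 32 genes and the lowest for none, and scr tumor 4 was the lowest for 16. In the other group, IL-6 KO tumor 1 was the lowest for 17 and IL-6 KO tumor 4 the highest for 13. Leukocyte markers summed to 215 to 251 CPM in scr tumors and to 797, 414, 575 and 594 CPM in IL-6 KO tumors 1 to 4, and the order of the IL-6 KO tumors by this sum was not the reverse of their order by collagen share. IL-6 KO tumor 1 had the lowest collagen share and the highest sum, whereas tumor 2 had the next lowest share and the lowest sum. All 5 leukocyte markers tested were higher in IL-6 KO tumors, against 19.1% of all tested genes. The part of leukocyte content in the collagen values was not tested.

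**Figure D2:**
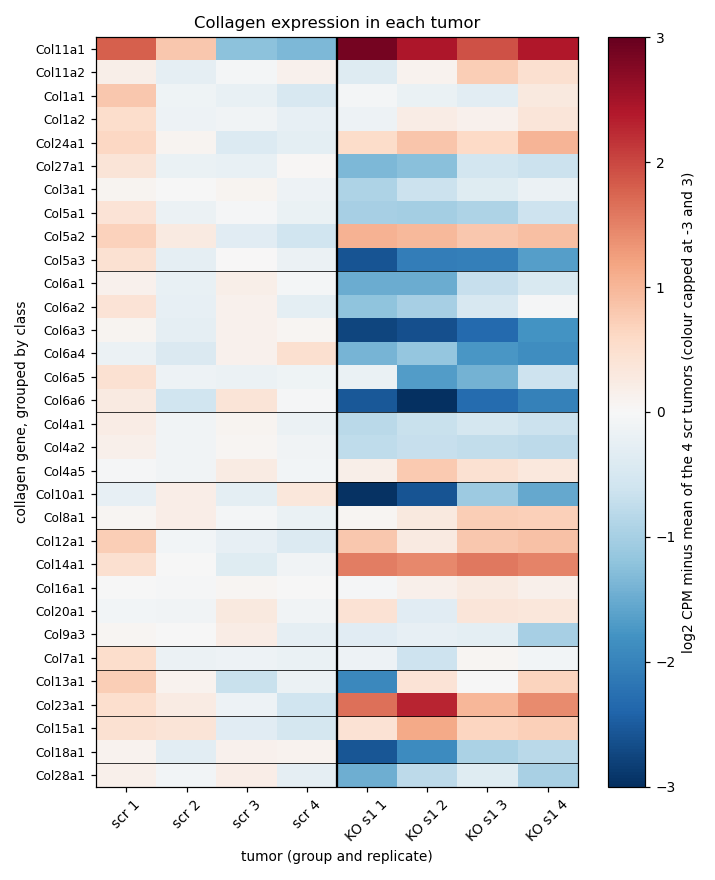
Expression of each tested collagen gene in each tumor as log2 CPM minus the mean of the 4 scr tumors (colour, capped at -3 and 3), with scr tumors left of the line and IL-6 KO tumors right of it. Col6a3, Col5a3 and Col18a1 are blue in all 4 IL-6 KO tumors and Col14a1 is red in all 4, whereas scr tumor 1 is redder than the other scr tumors over many genes.

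Type VI collagen was the class with the most uniform change. All 6 of its genes were tested and all 6 were lower, against 20.7% of all tested genes. Their median log2 fold change was -1.28, and for 5 of them the groups did not overlap, against 37.1% of all tested genes. Set against the mean of Pdgfra and Pdgfrb, markers of fibroblasts, the decreases shrank to -2.10 for Col6a6, -1.61 for Col6a3 and -0.77 for Col6a4. They shrank to -0.25 for Col6a1 and -0.20 for Col6a5, near or below their standard errors, and the sign turned for Col6a2 (0.10). This reference was chosen after seeing the data. Other fibroblast markers ran from -2.21 for Thy1 to 1.10 for Postn, so these values depend on the markers chosen. The type VI transcripts took 0.170%, 0.133%, 0.174% and 0.156% of reads in scr tumors and 0.0401%, 0.0407%, 0.0644% and 0.0836% in IL-6 KO tumors. Every IL-6 KO tumor thus lay below every scr tumor.

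Col6a3 encodes the long alpha 3 chain of type VI filaments, whose C-terminal fragment is released as endotrophin. It was at 9.81, 9.44, 9.85 and 9.78 in scr tumors and at 6.98, 7.09, 7.38 and 7.92 in IL-6 KO tumors. The highest IL-6 KO tumor was far below the lowest scr tumor. Its level in IL-6 KO tumors was 19.2% of that in scr tumors (log2 fold change -2.38, SE 0.18, adjusted p = 3.78e-06). Col6a1, the alpha 1 chain, was at 9.12, 8.77, 9.17 and 8.94 in scr tumors and at 7.52, 7.51, 8.31 and 8.55 in IL-6 KO tumors. Its groups did not overlap either, though IL-6 KO tumors 3 and 4 came close to the scr range (log2 fold change -1.03, SE 0.22, adjusted p = 0.00308). Col6a2, the alpha 2 chain, was at 8.09, 7.45, 7.81 and 7.39 in scr tumors and at 6.47, 6.69, 7.21 and 7.65 in IL-6 KO tumors, with IL-6 KO tumor 4 inside the scr range. Its log2 fold change was -0.68 (SE 0.23, adjusted p = 0.0378), and the call was lost without scr tumor 1 or 3 or IL-6 KO tumor 1 or 2 (log2 fold changes -0.54, -0.64, -0.50 and -0.57). Col6a1, Col6a2 and the type XVIII gene Col18a1 lie in 1 stretch of chromosome 10, though not side by side. Col6a1 ends at base 76726044 and Col18a1 begins at base 77052178. The median log2 fold change of the other tested genes of this chromosome was 0.33.

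The other 3 genes of the class, Col6a4, Col6a5 and Col6a6, encode chains that can take the place of alpha 3, and they lie side by side on chromosome 9. They were scarce, with 86, 123 and 170 reads in all scr tumors together and 27, 64 and 25 in all IL-6 KO tumors. Col6a6 was at 1.68, 0.82, 1.80 and 1.40 in scr tumors and at -1.12, -3.21, -0.89 and -0.61 in IL-6 KO tumors, wholly apart, and its log2 fold change of -2.88 (SE 0.53, adjusted p = 0.00137) was the largest decrease of any tested collagen. Col6a4 was at 0.30, 0.03, 0.60 and 0.94 in scr tumors and at -0.93, -0.70, -1.28 and -1.40 in IL-6 KO tumors (log2 fold change -1.54, SE 0.35, adjusted p = 0.00481). Col6a5 sat on the threshold with an adjusted p of 0.0499 in limma (log2 fold change -0.98, SE 0.36), and the call was lost without any 1 tumor other than IL-6 KO tumor 1, with log2 fold changes between -1.10 and -0.74. In the GENCODE annotation, 13 of the 43 collagen genes share exon bases with another gene, among them Col6a4 and Col6a6, Col3a1, Col5a1, Col15a1 and the pair Col4a1 and Col4a2, and the strand setting of the counting is not given in the sources used here.

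Among the fibrillar collagens, the type I pair that makes up most of scar and bone matrix did not pass the test. Col1a1 was at 11.01, 10.07, 9.97 and 9.70 in scr tumors and at 10.12, 9.99, 9.88 and 10.47 in IL-6 KO tumors. Scr tumor 1 stood above all other tumors, and the remaining values interleaved (log2 fold change -0.07, SE 0.24, adjusted p = 0.833). Without scr tumor 1 the sign turned (0.20), as it did without IL-6 KO tumor 3 (0.007). Col1a2 was at 11.12, 10.44, 10.48 and 10.34 in scr tumors and at 10.44, 10.81, 10.73 and 10.96 in IL-6 KO tumors, with a log2 fold change of 0.14 (SE 0.18, adjusted p = 0.549). Without the first tumor of both groups, a setting chosen after seeing the data, Col1a2 was called higher (log2 fold change 0.42, adjusted p = 0.0203 in limma). Col3a1, whose type III homotrimers lie in the same fibrils as type I, was the most abundant collagen per length of transcript in both groups. It was at 12.18, 12.09, 12.20 and 11.96 in scr tumors and at 11.17, 11.46, 11.74 and 11.93 in IL-6 KO tumors, with a log2 fold change of -0.53 (SE 0.17, adjusted p = 0.0275). Scr tumor 4 and IL-6 KO tumor 4 nearly met. With the median of the other tested genes of chromosome 1 (-0.34) subtracted, the log2 fold change was -0.19. The call was lost without scr tumor 1, 2 or 3 or IL-6 KO tumor 1 or 2, with log2 fold changes of -0.51, -0.54, -0.50, -0.40 and -0.49.

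The chains of type V collagen, which nucleates type I fibrils and limits their width, moved in different directions. Col5a3 was at 8.57, 7.83, 8.11 and 7.93 in scr tumors and at 5.52, 6.02, 6.06 and 6.46 in IL-6 KO tumors, which is 23.5% of the scr level (log2 fold change -2.09, SE 0.19, adjusted p = 1.61e-05). Col5a1 was at 8.91, 8.32, 8.46 and 8.28 in scr tumors and at 7.49, 7.47, 7.57 and 7.86 in IL-6 KO tumors (log2 fold change -0.90, SE 0.14, adjusted p = 0.000514). Both were lower without overlap. Col5a2 was at 6.86, 6.44, 5.84 and 5.57 in scr tumors and at 7.22, 7.16, 6.99 and 7.08 in IL-6 KO tumors, higher in every one of the latter (log2 fold change 0.93, SE 0.22, adjusted p = 0.00621). Col5a2 is the neighbour of Col3a1 on chromosome 1, at chr1:45374331-45503282 against chr1:45311538-45349706 on GRCm38.p6, and the neighbours were called in opposite directions.

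Col11a1, the alpha 1 chain of type XI collagen and a known product of activated tumor fibroblasts, had the largest increase of all tested collagens. It was at 1.01, 0.03, -2.02 and -2.14 in scr tumors and at 2.10, 1.65, 1.13 and 1.62 in IL-6 KO tumors, on only 55 and 190 reads in all. The scr tumors were spread widely and the groups did not overlap (log2 fold change 2.41, SE 0.62, adjusted p = 0.0101), and with no filter on low genes its adjusted p was 0.052 in limma. Col11a2, its partner chain, was not called (log2 fold change 0.23, adjusted p = 0.432). Col27a1, a fibrillar collagen of cartilage, was lower (log2 fold change -0.94, SE 0.21, adjusted p = 0.00422), and Col24a1 had a log2 fold change of 0.75 with an adjusted p of 0.0709 in limma, which became 0.95 with an adjusted p of 0.0257 without scr tumor 1. Col2a1, the main collagen of cartilage, had 4 reads in all scr tumors and 7 in all IL-6 KO tumors and was not tested. The cartilage markers Acan, Matn1 and Hapln1 had 3 reads or fewer in every tumor. Sox9 was tested and not called (log2 fold change -0.66, adjusted p = 0.134 in limma). Comp was not tested, at 4, 9, 4 and 4 reads in scr tumors and 28, 16, 8 and 15 in IL-6 KO tumors. In sum the fibrillar class had 4 genes lower, 2 higher and 4 not called among 10 tested. The share called was 60%, against 39.8% of all tested genes.

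Basement membrane collagen was split by chain. Col4a1 and Col4a2 form the common type IV trimer, and their start sites lie 21 bases apart on opposite strands of chromosome 8. Col4a1 was at 8.82, 8.49, 8.68 and 8.43 in scr tumors and at 7.80, 7.95, 8.07 and 7.96 in IL-6 KO tumors (log2 fold change -0.66, SE 0.10, adjusted p = 0.000496). Col4a2 was at 8.56, 8.29, 8.46 and 8.29 in scr tumors and at 7.64, 7.71, 7.67 and 7.60 in IL-6 KO tumors (log2 fold change -0.75, SE 0.08, adjusted p = 6.38e-05). Both chains were lower in all 4 IL-6 KO tumors, and their changes were close to those of Pdgfra and Pdgfrb (0.12 and 0.03 relative to the mean of these). Other fibroblast markers differed, from -2.21 for Thy1 to 1.10 for Postn, and the part of fibroblast content was not tested. Col4a5, an X-linked chain of specialised basement membranes, was at 5.90, 5.83, 6.19 and 5.85 in scr tumors and at 6.11, 6.73, 6.39 and 6.26 in IL-6 KO tumors. It was higher by 0.43 (SE 0.13, adjusted p = 0.0221), with scr tumor 3 inside the IL-6 KO range. The call was lost without scr tumor 2 or 4 or IL-6 KO tumor 2 or 3, where the log2 fold changes were 0.40, 0.40, 0.31 and 0.43. Col4a3, Col4a4 and Col4a6 were too scarce to test, at 14, 6 and 0 reads in all scr tumors and 7, 2 and 1 in all IL-6 KO tumors. Of 9 endothelial markers, none was higher and 1 was lower, against 19.1% and 20.7% of all tested genes. The lower marker was Vwf (log2 fold change -0.78, adjusted p = 0.00515 in limma). The list summed to 143 to 230 CPM in scr tumors and 152 to 193 CPM in IL-6 KO tumors.

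The multiplexins, basement membrane collagens that carry endostatin-type domains, also parted. Col18a1 was at 8.82, 8.42, 8.85 and 8.82 in scr tumors and at 6.17, 6.83, 7.79 and 7.91 in IL-6 KO tumors, with the IL-6 KO tumors widely spread but all below the scr tumors (log2 fold change -1.55, SE 0.31, adjusted p = 0.00238). Col15a1 was at 4.26, 4.20, 3.47 and 3.28 in scr tumors and at 4.23, 4.93, 4.45 and 4.51 in IL-6 KO tumors. It was higher (log2 fold change 0.73, SE 0.23, adjusted p = 0.0255), with IL-6 KO tumor 1 just under scr tumor 1, and it was not called without scr tumor 3 or 4 or IL-6 KO tumor 2 (log2 fold changes 0.62, 0.55 and 0.59). Of the short-chain network collagens, Col10a1, best known from hypertrophic cartilage, was at 1.93, 2.38, 1.88 and 2.52 in scr tumors and at -0.77, -0.40, 1.09 and 0.64 in IL-6 KO tumors (log2 fold change -2.04, SE 0.39, adjusted p = 0.00166). Its groups did not overlap, but its exons overlap Nt5dc1 on the other strand. Of the bone-forming markers, Sp7 had 3 reads or fewer in every tumor and Runx2 was lower (log2 fold change -0.39, adjusted p = 0.00143 in limma). Bglap, Ibsp and Alpl were too scarce to test. Col8a1, a collagen of vessel walls and subendothelial matrix, was at 7.05, 7.20, 6.93 and 6.79 in scr tumors and at 7.06, 7.28, 7.73 and 7.70 in IL-6 KO tumors (log2 fold change 0.45, SE 0.15, adjusted p = 0.0317). The groups overlapped, and the call was lost without scr tumor 3 or 4 or IL-6 KO tumor 3 or 4 (log2 fold changes 0.43, 0.38, 0.35 and 0.37). Its partner Col8a2 was not tested, with 4 reads in all scr tumors and 68 in all IL-6 KO tumors, nearly all of the latter in IL-6 KO tumors 1 and 2.

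Of 5 fibril-associated collagens tested, 2 were higher, 0 were lower and 3 were not called, and the share called, 40%, was near the 39.8% of all tested genes. Col14a1, which binds type I fibrils through decorin, was at 3.18, 2.69, 2.33 and 2.59 in scr tumors and at 4.23, 4.15, 4.29 and 4.19 in IL-6 KO tumors. The IL-6 KO tumors were tightly grouped above every scr tumor, at 2.86 times the scr level (log2 fold change 1.52, SE 0.17, adjusted p = 6.58e-05). Col12a1, which bridges fibrils in tissue under load, was at 7.74, 6.94, 6.76 and 6.61 in scr tumors and at 7.81, 7.27, 7.82 and 7.89 in IL-6 KO tumors (log2 fold change 0.68, SE 0.22, adjusted p = 0.0268). Scr tumor 1 reached into the IL-6 KO range. The call was lost without scr tumor 2, 3 or 4 or IL-6 KO tumor 3 or 4, where the log2 fold changes were 0.66, 0.60, 0.55, 0.64 and 0.62. Col16a1, the most abundant of the class, was at 7.91, 7.90, 7.98 and 7.91 in scr tumors and at 7.88, 8.08, 8.19 and 8.08 in IL-6 KO tumors and was not called (log2 fold change 0.14, SE 0.08, adjusted p = 0.214). Col20a1 and Col9a3 had log2 fold changes of 0.20 and -0.47 and were not called, and Col9a1, Col9a2, Col19a1 and Col22a1 had 1, 0, 2 and 5 reads in all scr tumors and 0, 0, 3 and 10 in all IL-6 KO tumors.

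The remaining collagens are membrane proteins or minor forms. Col23a1, a transmembrane collagen, was at 0.67, 0.41, 0.03 and -0.42 in scr tumors and at 1.82, 2.47, 1.17 and 1.59 in IL-6 KO tumors, higher without overlap (log2 fold change 1.59, SE 0.33, adjusted p = 0.00309). Col13a1, another transmembrane collagen, was at 0.82, 0.19, -0.58 and -0.09 in scr tumors and at -1.85, 0.49, 0.07 and 0.76 in IL-6 KO tumors. It was not called (adjusted p = 0.776 in limma), and its log2 fold change of -0.22 turned to 0.02 without scr tumor 1 and to 0.35 without IL-6 KO tumor 1. Col25a1, a transmembrane collagen of neurons, had 15 and 4 reads and was not tested. Col28a1, known from peripheral nerve, was at 1.81, 1.58, 1.86 and 1.40 in scr tumors and at 0.19, 0.88, 1.29 and 0.70 in IL-6 KO tumors (log2 fold change -0.90, SE 0.27, adjusted p = 0.0202). The scr tumors were all above the IL-6 KO tumors, but the call was lost without scr tumor 3 (log2 fold change -0.83). Col7a1, the anchoring fibril of skin, was at 5.96, 5.25, 5.28 and 5.22 in scr tumors and at 5.27, 4.81, 5.50 and 5.35 in IL-6 KO tumors. It was not called (log2 fold change -0.20, SE 0.18, adjusted p = 0.414). The keratinocyte markers Trp63, Dsg3 and Ivl had 3 reads or fewer in every tumor. Krt5, Krt14 and Krt1 had 59, 28 and 11 reads in scr tumor 1, where Col7a1 was highest, and 3 or fewer in every other tumor. Krt10 was not called (log2 fold change -0.29) and was also highest in scr tumor 1. The part of skin in the Col7a1 values was not tested. Col26a1 had 0 reads in every tumor, and a count of 0 allows up to 3.

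Corrected for transcript length, the order of the most abundant collagens changed below the first 4. The mean level per kilobase was 795 CPM per kb for Col3a1, 296 for Col1a2, 210 for Col1a1 and 126 for Col6a1 in scr tumors, and 560, 322, 190 and 64.6 CPM per kb for the same genes in IL-6 KO tumors. Col6a3 ranked 5 among all 43 collagens in scr tumors, at 84.0 CPM per kb, and 14 in IL-6 KO tumors, at 16.6 CPM per kb. Col18a1 went from rank 6 to rank 9, and Col5a3 from rank 10 to rank 16. Col16a1 came up from rank 9 to rank 5 and Col8a1 from 13 to 7, with levels per kilobase of 46.6 against 51.3 and 25.0 against 34.7 CPM per kb. Neighbouring genes in this order, such as Col4a1 and Col4a2 at 59.2 and 52.6 CPM per kb in scr tumors, are close to each other.

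**Figure D3:**
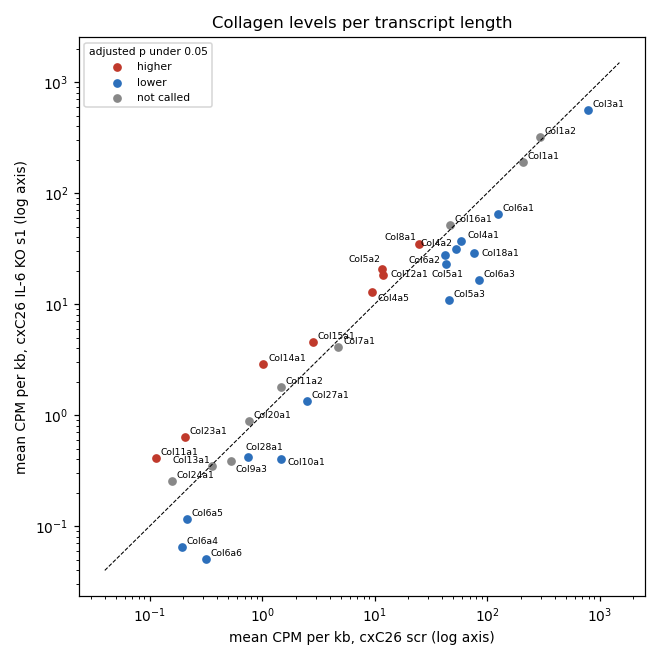
Mean CPM per kilobase of the longest transcript in scr tumors (x, log axis) and IL-6 KO tumors (y, log axis) for the 32 tested collagen genes; the dashed line marks equal levels. Col3a1, Col1a2 and Col1a1 lie at the top right in both groups, and Col6a3 and Col5a3 lie far below the line at 84.0 against 16.6 and 46.0 against 10.9 CPM per kb.

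Pairs of chains from the same fibril, collagen type or class were then compared within each tumor. The measure was the difference of their log2 CPM, which does not depend on the scaling between tumors. Col18a1 and Col15a1 were paired by class, and Col4a5 and Col4a1 by type. For 10 pairs a two-sided exact permutation test over the 8 tumors was run, for which the smallest possible p is 0.0286. Where a pair reached it, the p adjusted over the 10 pairs was 0.0476. In 6 of the 10 pairs the groups did not overlap. The share for gene pairs in general was not computed, and for single genes it was 37.1% of all tested.

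The largest change was in the multiplexins, where Col18a1 exceeded Col15a1 by 4.56, 4.22, 5.38 and 5.54 in scr tumors and by 1.94, 1.90, 3.34 and 3.41 in IL-6 KO tumors (change -2.28, exact permutation p = 0.0286). Col5a2 minus Col5a1 was -2.05, -1.88, -2.62 and -2.71 in scr tumors and -0.27, -0.31, -0.58 and -0.78 in IL-6 KO tumors (change 1.83, exact permutation p = 0.0286). Per kilobase, Col5a2 was thus at 0.194 to 0.345 of Col5a1 in scr tumors and at 0.738 to 1.05 of it in IL-6 KO tumors. Since Col5a2 was higher and Col5a1 lower, each without overlap, their difference had to separate the groups, and its p adds nothing to the single genes. For Col18a1, called lower, minus Col15a1, called higher, the direction also followed from the single genes, so its p is not separate support. In type VI, Col6a3 minus Col6a1 was 0.69, 0.67, 0.68 and 0.84 in scr tumors and -0.54, -0.42, -0.94 and -0.64 in IL-6 KO tumors (change -1.35, exact permutation p = 0.0286). The ratio per kilobase was 0.647 to 0.726 in scr tumors and 0.212 to 0.303 in IL-6 KO tumors, so that Col6a3 fell further than its partner chain.

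In type IV, Col4a5 minus Col4a1 rose from a mean of -2.66 ± 0.19 (SD, n = 4) to -1.57 ± 0.24 (SD, n = 4), with an exact permutation p of 0.0286. As Col4a5 was called higher and Col4a1 lower, this direction followed from the single genes, and the p is not separate support. Col12a1 minus Col1a1 rose from -3.18 ± 0.08 to -2.42 ± 0.29, and Col5a1 minus Col1a1 fell from -1.70 ± 0.30 to -2.52 ± 0.15 (SD, n = 4 each), both with an exact permutation p of 0.0286. For the other pairs the groups overlapped: Col4a1 minus Col4a2 differed by 0.09 (exact permutation p = 0.229), Col1a1 minus Col1a2 by -0.21 (exact permutation p = 0.286), Col6a1 minus Col6a2 by -0.35 (exact permutation p = 0.0857) and Col3a1 minus Col1a1 by -0.46 (exact permutation p = 0.171). The partner chains of type I and of the common type IV trimer showed no difference in balance that was detectable with 4 tumors per group.

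**Figure D4:**
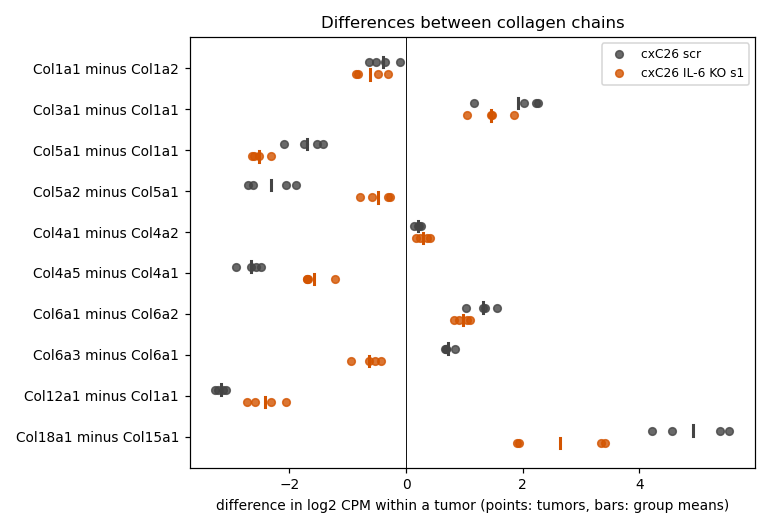
Difference in log2 CPM between paired collagen chains in each tumor (x axis) for 10 pairs; points are tumors, vertical bars are group means. The scr and IL-6 KO points are fully apart for 6 pairs, among them Col5a2 minus Col5a1, where the means are -2.31 and -0.48.

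Enzymes, chaperones and receptors that act on collagen were called about as often as genes in general. Of 47 genes listed, 42 were tested, of which 4 were higher (9.52%, against 19.1% of all tested genes) and 13 lower (31%, against 20.7%). The share called in either direction was 40.5%, near the background of 39.8%. Hydroxylation and glycosylation enzymes had 1 gene higher and 6 lower among 13 tested, chaperones and secretion factors had none higher and 2 lower among 10, and procollagen processing had 1 in each direction among 6. Of 5 lysyl oxidases 1 was higher, and of 8 tested receptors 1 was higher and 4 were lower.

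Plod2, the lysyl hydroxylase that modifies collagen telopeptides for stable cross-links, was at 6.03, 6.47, 6.57 and 6.57 in scr tumors and at 8.78, 8.84, 8.91 and 8.82 in IL-6 KO tumors. Its increase was the largest of the list and the tumors of each group lay close together (log2 fold change 2.43, SE 0.12, adjusted p = 1.84e-07). Plod1 and Plod3, the lysyl hydroxylases of the helix, were both lower (log2 fold changes -0.44 and -0.72, adjusted p = 0.0107 and 0.00055), and Plod3 was at -0.48 with the median of its chromosome subtracted. The prolyl hydroxylase subunits of highest expression, P4hb and P4ha1, were not called (log2 fold changes 0.04 and -0.09), whereas P4ha2 was lower (log2 fold change -0.82, adjusted p = 0.0107 in limma). Serpinh1, the collagen chaperone HSP47, was at 10.23, 9.88, 10.02 and 9.88 in scr tumors and at 9.06, 9.27, 9.38 and 9.39 in IL-6 KO tumors, below every scr tumor (log2 fold change -0.73, SE 0.11, adjusted p = 0.000499), and -0.46 with the median of its chromosome subtracted. Sec24d, of the secretory coat, was not called (log2 fold change 0.19, adjusted p = 0.172), though without scr tumor 1 it was (0.29, adjusted p = 0.0231 in limma).

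The N-propeptide of procollagen is removed by a small family of proteinases whose members diverged. Adamts14 was at 6.20, 5.75, 6.15 and 6.11 in scr tumors and at 4.51, 3.92, 4.09 and 4.33 in IL-6 KO tumors (log2 fold change -1.84, SE 0.14, adjusted p = 4.61e-06). Adamts2 was higher by 0.83 (SE 0.25, adjusted p = 0.0197), a call lost without scr tumor 2, 3 or 4 or IL-6 KO tumor 3 (log2 fold changes 0.79, 0.70, 0.70 and 0.78). Bmp1 and its enhancer Pcolce, which act on the C-propeptide, were not called (log2 fold changes 0.07 and -0.07). Lox, which starts cross-linking, was at 4.19, 3.63, 2.68 and 2.29 in scr tumors and at 4.46, 4.74, 4.09 and 4.13 in IL-6 KO tumors. It was higher by 1.15 (SE 0.35, adjusted p = 0.0202), with scr tumor 1 inside the IL-6 KO range, and it was not called without scr tumor 3 or 4 or IL-6 KO tumor 2 (log2 fold changes 0.98, 0.85 and 1.02). The more abundant Loxl1 and Loxl3 were not called (log2 fold changes 0.07 and -0.08).

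Of 4 collagen-binding integrin alpha chains, 3 were tested and were lower. Itga11 did not pass the filter, at 4, 3, 1 and 11 reads in scr tumors and 29, 15, 14 and 8 in IL-6 KO tumors, where 3 of 4 values were above the scr range. Itga2 was at 3.66, 4.02, 4.16 and 4.01 in scr tumors and at 1.87, 0.49, 1.62 and 1.37 in IL-6 KO tumors, without overlap (log2 fold change -2.62, SE 0.27, adjusted p = 3.04e-05). Itga1 and Itga10 had log2 fold changes of -1.17 and -1.10 (adjusted p = 0.00421 and 0.01), and their shared partner Itgb1 was at 10.37 to 10.50 in 7 of 8 tumors and at 10.23 in scr tumor 1, with an adjusted p of 0.978 in limma. Ddr2, the receptor tyrosine kinase for fibrillar collagen, was at 8.87, 8.89, 8.92 and 8.93 in scr tumors and at 8.10, 8.19, 8.21 and 8.43 in IL-6 KO tumors (log2 fold change -0.67, SE 0.09, adjusted p = 0.000158), and -0.33 with the median of its chromosome subtracted. Lair1, an inhibitory collagen receptor of leukocytes, was at 2.79, 2.98, 3.32 and 3.24 in scr tumors and at 5.39, 3.49, 3.77 and 3.84 in IL-6 KO tumors (log2 fold change 1.04, SE 0.34, adjusted p = 0.0294). It was highest in IL-6 KO tumor 1, the tumor with the highest leukocyte sum, and was not called without scr tumor 1, 2 or 4 (log2 fold changes 0.94, 1.00 and 1.09). Without IL-6 KO tumor 1 it was called with a smaller log2 fold change of 0.62.

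**Figure D5:**
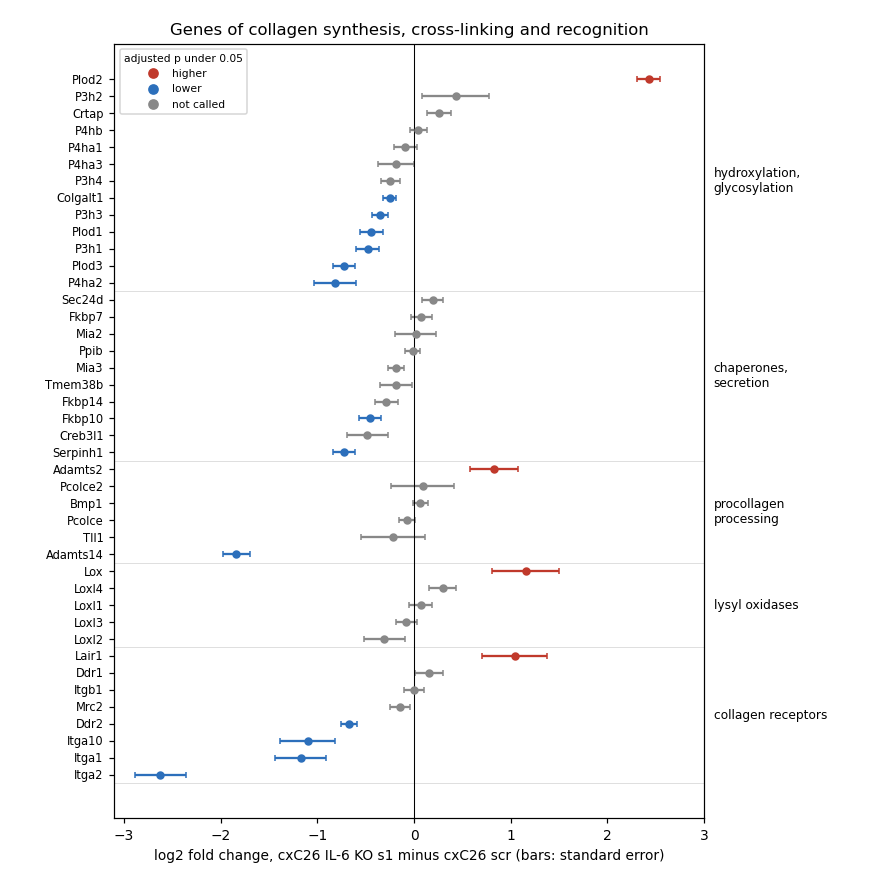
Log2 fold change (IL-6 KO minus scr, x axis) with standard error of 42 tested genes that modify, fold, process, cross-link or bind collagen, in 5 lists. Plod2 at 2.43 and Itga2 at -2.62 are the extremes.

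Fibroblast markers moved with the collagens in part. Of 10 tested, 6 were lower and 2 were higher, against 20.7% and 19.1% of all tested genes. The list summed to 2501 to 2801 CPM in scr tumors and to 1270, 1377, 1985 and 1913 CPM in IL-6 KO tumors 1 to 4. Thy1, Fap and Dpt had log2 fold changes of -2.21, -1.86 and -1.50, and the fibroblast receptors Pdgfra and Pdgfrb of -0.78 and -0.77, while Lum and Postn were higher by 1.01 and 1.10. Relative to the mean of Pdgfra and Pdgfrb, with no test, the differences were -2.10 for Col6a6, -1.61 for Col6a3, -1.32 for Col5a3, -1.27 for Col10a1, -0.78 for Col18a1 and -0.77 for Col6a4. For Col6a1, Col6a5, Col27a1, Col28a1 and Col5a1 they were -0.25, -0.20, -0.17, -0.12 and -0.12, near or below the standard errors of their fold changes. Mural markers had 1 gene higher, Tagln, among 7 tested and none lower, and skeletal muscle, adipocyte and Schwann markers had no call. The skeletal muscle list was spread widely within both groups. It summed to 35.3, 153, 37.2 and 7.83 CPM in scr tumors and to 21.2, 65.4, 88.0 and 311 CPM in IL-6 KO tumors 1 to 4. IL-6 KO tumor 4, with the highest muscle sum, also had the highest collagen share of its group. This did not hold among scr tumors. There the highest muscle sum was in tumor 2, with a collagen share of 1.06%, and the highest share, 1.34%, was in tumor 1. Cells of C26 tumors may themselves express several of the markers listed here. The part of fibroblast or muscle content in the collagen values was not tested.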

How the data were processed

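Whole tumors of 2 groups, 4 cxC26 scr and 4 cxC26 IL6KOs1, were grouped by sample title. Per the paper's methods, the authors used Trimmomatic for trimming, Hisat2 for alignment to mm10 and featureCounts for counting, and deposited log2 CPM from limma-voom. Base calls came from bcl2fastq 2.17 according to the submitters' processing notes. The annotation, the strand setting and other versions are not given in the sources used here, so reads of overlapping genes may be shared.

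The deposited log2 values hold 0.5 reads added to each count and 1 to the library size. Undoing this gave whole reads (within 0.01) for 100% of values, used for depth (14158989 to 17048062 reads per tumor), shares and low genes. Intervals and floors were limited to counting error, with 3 reads as the floor.

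Expression was tested in R 4.3.3 with limma 3.58.1 (lmFit and eBayes with trend, no covariates) on the deposited log2 values of 13262 genes that reached 1 CPM in 4 or more tumors. P-values were adjusted by Benjamini-Hochberg over all of them, threshold 0.05. Chain differences were tested by two-sided exact permutation. The scripts were tested on simulated data. Tables and plots were made in Python 3.11.15 with pandas 2.3.3, numpy 2.4.6 and matplotlib 3.10.9. Lengths came from the longest GENCODE M21 transcript, positions and promoters from RefSeq GRCm38.p6.

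Members, classes and gene lists were chosen with earlier results of these data known. Every collagen gene is accounted for. Values per tumor were given for the tested genes among the 3 collagens of highest expression in each class. They were also given for the 10 collagens with the largest called change and for both chains of each pair. Machinery genes were named if called with a log2 change of at least 1 or among the 2 highest of their list. Several of these, such as Itga1, Itga10, P4hb and Loxl1, were given by fold change only. Other genes were named after their values were seen. P-values set the difference between the groups against the spread between the tumors of a group. They do not cover variation between clones, since all IL-6 KO tumors came from a single subclone. Same-numbered tumors came from different mice, so no pairing was used. The alternatives tried were no filter or a stricter one, quantile or median scaling, another pseudocount, no variance trend, voom weights, a replicate block, each tumor left out, the chromosome median subtracted and a 2-fold minimum.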

Additional observations from a re-analysis of the deposited data

Results flagged for a closer look

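In 13 of 136 groups of 4 tumors, 1 tumor lay far from the other 3 relative to the range of its group, by Dixon's criterion. Chance alone gives about 6.8. Scr tumor 1 was the distant one for Col7a1 (5.96, others 5.22 to 5.28), for Col6a5 (1.42, others 0.78 to 0.84), for the chaperone Fkbp10 (7.62, others 7.11 to 7.16) and for the integrin chain Itgb1 (10.24, others 10.48 to 10.50). Scr tumor 2 was low for Col6a3 (9.44, others 9.78 to 9.85) and for Col18a1 (8.42, others 8.82 to 8.85). Scr tumor 3 was high for Col16a1 (7.98, others 7.90 to 7.91) and for Col20a1 (2.22, others 1.82 to 1.86). IL-6 KO tumor 2 was low for Col12a1 (7.27, others 7.81 to 7.89) and Col20a1 (1.58, others 2.28 to 2.36). IL-6 KO tumor 4 was low for Col9a3 (-0.33, others 0.34 to 0.42). Among chain differences, Col4a5 minus Col4a1 was highest in IL-6 KO tumor 2 (-1.21, others -1.70 to -1.68) and Col6a3 minus Col6a1 in scr tumor 4 (0.84, others 0.67 to 0.69). For Col6a3 and Col18a1 the distant tumor narrowed the gap between the groups, and the groups stayed apart.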

How the results depend on the processing

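Col6a3, Col5a3, Col6a1, Col6a4, Col6a6, Col10a1, Col18a1, Col14a1, Col23a1, Col5a1, Col5a2 and Col27a1 kept their direction and their call under every alternative in which they were fitted, apart from the minimum fold. Without the variance trend, Col6a2, Col8a1, Col12a1, Col15a1 and Lair1 lost their call, while Col24a1 became called. With no filter on low expression, the same genes that lost their call lost it again. Col3a1, Col4a5, Col6a5, Col11a1, Col28a1, Adamts2 and Lox also lost theirs with no filter. Quantile scaling cost Col6a2 its call (adjusted p = 0.0515 in limma). The number of collagens called higher, 8, was 3 with no filter on low expression and 3 with a 2-fold minimum, and ranged from 4 to 9 with 1 tumor left out (4 without scr tumor 4, 5 without scr tumor 3 or IL-6 KO tumor 3). The number called lower, 15, was 7 with a 2-fold minimum, 11 with no filter on low expression, and 11 to 14 with 1 tumor left out. Machinery genes called higher, 4, were 1 with no filter and 1 to 5 with 1 tumor left out (2 without scr tumor 2 or 3, 1 without scr tumor 4), and those called lower, 13, were 4 with a 2-fold minimum. Apart from the minimum fold and the filter, which change the calls by construction, the cause was not tested.

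Leaving out the first tumor of both groups was chosen after seeing the data. It gave 10 collagens called higher and 12 lower, 7 machinery genes called higher, and log2 fold changes of 0.60 for Col13a1 and 0.20 for Col1a1. Col1a2 (0.42), Col24a1 (1.02) and Sec24d (0.33) became called, at adjusted p = 0.0203, 0.0289 and 0.0137 in limma. Col3a1 (-0.37), Col6a2 (-0.36), Col28a1 (-0.66) and Itga10 (-0.80) lost their call, at adjusted p = 0.112, 0.187, 0.0761 and 0.0505 in limma. With 1 tumor left out, log2 fold changes ranged from -0.52 to 0.35 for Col13a1, from -0.23 to 0.20 for Col1a1, from -0.070 to 0.020 for Itgb1 and from -0.032 to 0.17 for Loxl1, and centring each tumor on its median gave 0.0032 for Itgb1. Values relative to the mean of Pdgfra and Pdgfrb, also chosen after seeing the data, turned the median of the tested collagens to 0.43, Col3a1 to 0.24, Col4a1 to 0.12, Col4a2 to 0.027, Col6a2 to 0.10, Ddr2 to 0.10, Serpinh1 to 0.045, Colgalt1 to 0.52, Fkbp10 to 0.32, P3h1 to 0.29, P3h3 to 0.42, Plod1 to 0.33 and Plod3 to 0.051.

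Subtracting the median of the chromosome moved 8 values by more than the spread between tumors, Col3a1 to -0.19, Ddr2 to -0.33, Serpinh1 to -0.46, Plod3 to -0.48, Adamts14 to -2.17, P4ha1 to -0.42, P4hb to 0.19 and Pcolce to 0.17, the last with a change of sign, and Col1a1 changed sign by less (0.08).

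The replicate numbers did not pair the tumors (correlations of deviations -0.06, 0.06, 0.02 and -0.06 for numbers 1 to 4). With the replicate block, 7 collagens were higher and 14 lower, Col6a2 and Col8a1 losing their call. The 10 chain differences kept their direction with any 1 tumor left out, where no p was computed. Depth limits the genes with few reads, above all Col6a4, Col6a5, Col6a6, Col11a1 and the 11 collagens that were not tested.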
